A study of Mus musculus with 10 samples.

Results

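The peroxisome genes described here are 43 mouse genes for the building of peroxisomes and for the enzymes inside them, out of 39017 genes in the count table. They were picked out by symbol, with no measured value in the rule, but the list was chosen with earlier results of these data known. Each symbol was found on exactly 1 row. By role they comprise 13 biogenesis genes, 15 beta-oxidation genes, 2 alpha-oxidation genes, 3 ether lipid genes, 6 other matrix enzymes and 4 membrane proteins. The question was whether the RNA of these genes differs between lung tumours labelled Glut1-KO and Control, and how biogenesis, beta-oxidation and ether lipid genes compare.

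Poly(A) RNA was sequenced from 10 libraries, 5 labelled Control and 5 labelled Glut1-KO. All mice were on a C57BL/6 background and were of the KP tumour model with p53Fl/Fl, so that both groups share the oncogenic allele of that model and the loss of p53. The Glut1-KO mice carried Glut1Fl/Fl in addition (KPG1). Tumours were started with an adenovirus that expresses Cre from the CC10 promoter, which is active in club cells of the airway, and were macrodissected 20 weeks and 1 day later. CD45-positive immune cells were removed with magnetic beads, and other cells of the tumour stayed in the fraction. The genotype label of the controls reads heterozygous fl/wt and that of the Glut1-KO libraries homozygous fl/fl, while the series' design text calls the controls Glut1 wild type. All 5 controls were male, Glut1-KO replicates 1 to 3 were female and replicates 4 and 5 male. No label says that replicates came from separate animals, and mouse age is not given in the sources used here. Several libraries share a number in their names (Controls 1, 2 and 5, then Controls 3 and 4, then Glut1-KO replicates 4 and 5), so the p-values measure the spread between libraries, part of which may be technical.

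Peroxisomes are organelles bounded by a single membrane that shorten very-long-chain and branched fatty acids by beta- and alpha-oxidation, make the first intermediates of ether lipids such as plasmalogens, and break down hydrogen peroxide. Their matrix proteins are made in the cytosol and imported folded by peroxins, the PEX proteins: a receptor binds the cargo, docks at the membrane, is tagged with ubiquitin and is pulled out again for another round. In the lung, alveolar type 2 cells, which make surfactant lipid, and club cells are known to be rich in peroxisomes.

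Library totals ranged from 40122224 to 49760462 counts in the controls and from 35250991 to 44625716 in the Glut1-KO group, at which a gene of moderate level such as Pex7 rests on 1097 to 2182 counts per library. The targeted gene, Slc2a1, was at 73.2 to 118 CPM (counts scaled to a common library size) in the controls, at 34.6 to 60.2 CPM in the 3 female Glut1-KO libraries, and at 92.4 and 102.9 CPM in the 2 male ones, which are therefore "labelled Glut1-KO" but lie within the control range. No alveolar type 2 marker was at 0 (summed level 28200 to 88550 CPM in the controls and 53080 to 76070 CPM in the Glut1-KO group) and club cell markers summed to 2103 to 12010 CPM and 3035 to 9109 CPM. Of 9 tested leukocyte markers, 8 had higher means in the Glut1-KO group (sum 316 to 463 against 335 to 587 CPM; of 10 listed markers, none was at 0), and all 10 dissociation stress genes had lower means (5725 to 7663 against 3686 to 6205 CPM). Endothelial markers summed to 110 to 385 CPM in the controls and 164 to 529 CPM in the Glut1-KO group and ciliated markers to 9.86 to 248 CPM and 13.5 to 54.9 CPM, with overlap. Control 2 stood apart in its markers, with an alveolar type 2 sum of 28200 CPM (other controls 57620 to 88550), the lowest club sum and a proliferation sum of 715 CPM (other controls 385 to 426 and Glut1-KO libraries 348 to 490), and it is also the control that sets the overlap in Decr2 and Gnpat below. The part of this in those results was not tested. In bulk RNA, fewer cells of a type and less RNA per cell cannot be told apart.

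No peroxisome gene passed the test between the groups. With limma-voom and Benjamini-Hochberg adjustment over all 15922 genes tested, 0 of the 41 members that passed the filter on low counts had an adjusted p under 0.05, against 0% of all genes. DESeq2 and edgeR also called 0 members, where DESeq2 called 0.682% of all genes higher and 0.644% lower in the Glut1-KO group. At an unadjusted p under 0.05, 7 members were higher in the Glut1-KO group (Lonp2, Pex19, Abcd3, Hsd17b4, Pex10, Decr2 and Gnpat), which is 17.1% of those tested against 3.66% of all genes, and 0 members were lower, against 4.02%. The log2 fold change was above 0 for 30 of 41 members (73.2%) against 49.3% of all genes, and the median was 0.15 against 0.00 over all genes. The members were chosen with earlier results known, so these counts describe the list and carry no p. The count of 7 was 2 without Control 4, 3 without Glut1-KO replicate 1 or 2 and 4 without Control 1, 2 or 5, and the median was 0.09 without Glut1-KO replicate 3. In the same comparison 8 of 9 tested leukocyte and 8 of 8 endothelial markers had log2 fold changes above 0 (4 and 1 of them at an unadjusted p under 0.05), and 7 of 7 ciliated markers and 10 of 10 dissociation stress genes had values below 0 (0 and 5 at that p), with 0 past the adjusted p in each list (limma; DESeq2 called 3 leukocyte, 1 ciliated and 2 stress genes). The part of these in the counts of members was not tested.

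**Figure D1:**
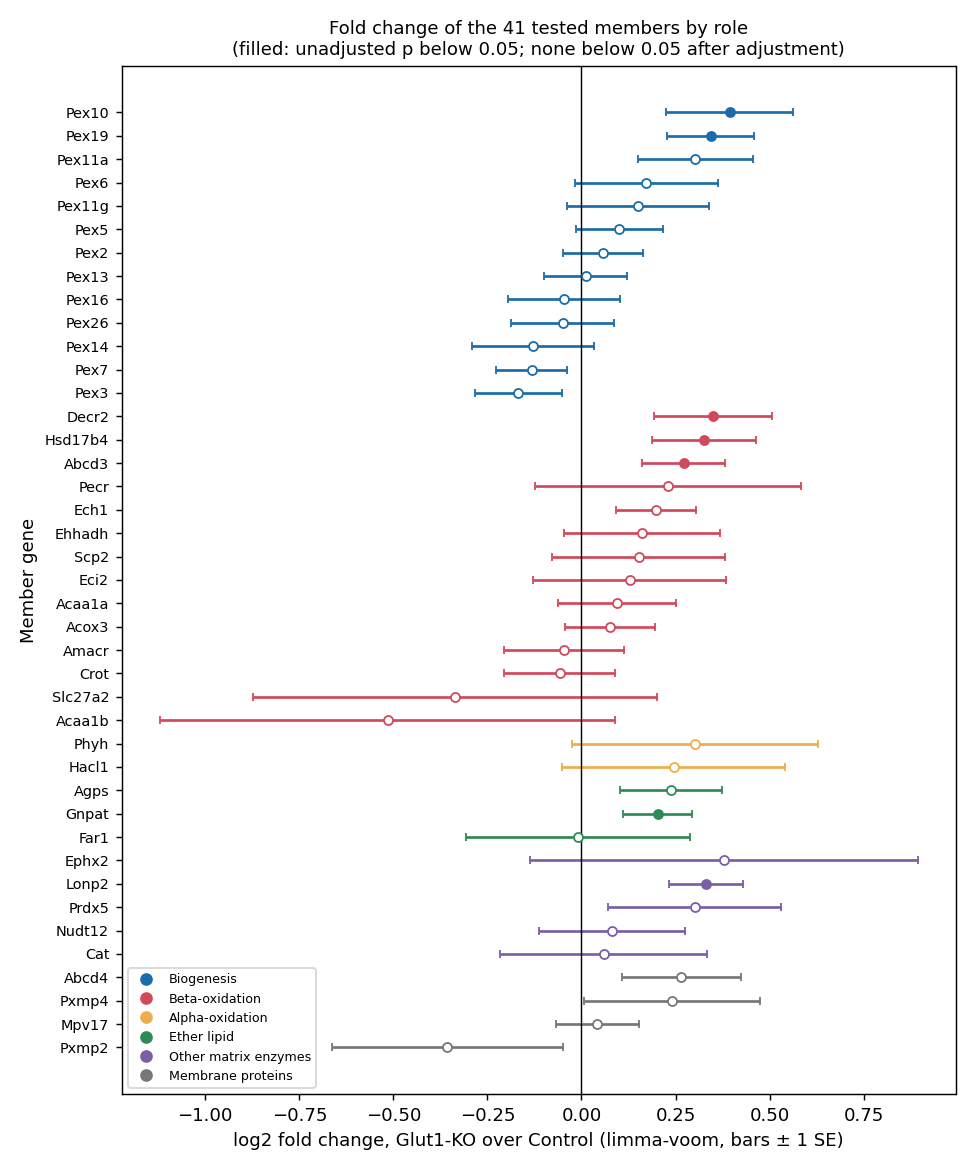
Fitted log2 fold change of each of the 41 tested members (horizontal axis, Glut1-KO over Control, bars ± 1 SE), ordered within 6 roles. The 7 filled points, with an unadjusted p under 0.05, all lie to the right of 0, and the widest bars belong to Acaa1b, Slc27a2 and Ephx2.

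The medians of the 3 roles to be compared ran from 0.06 to 0.20. The 13 biogenesis genes had a median log2 fold change of 0.06 (8 above 0, or 61.5%, and 5 below, with 2, or 15.4%, higher at an unadjusted p under 0.05), the 14 tested beta-oxidation genes 0.14 (10 above, or 71.4%, and 4 below, with 3, or 21.4%, at that p) and the 3 ether lipid genes 0.20 (2 above, or 66.7%, and 1 below, with 1, or 33.3%, at that p). Over all genes 49.3% were above 0 and 3.66% higher at that p. The difference between roles was not tested. Single libraries moved these medians: beta-oxidation was 0.07 without Control 2, 0.09 without Glut1-KO replicate 3 and 0.25 without Glut1-KO replicate 5, and biogenesis was 0.03 without any 1 of Controls 1, 2 and 4 or Glut1-KO replicates 2, 4 and 5. As the mean deviation of log2 CPM from each gene's own mean, biogenesis was at -0.10, -0.01, 0.01, -0.07 and -0.02 in Controls 1 to 5 and at 0.04, 0.01, 0.05, 0.00 and 0.09 in Glut1-KO replicates 1 to 5. The same measure for beta-oxidation was at -0.25, 0.00, 0.07, -0.01 and 0.00 in the controls and at -0.05, 0.14, 0.15, -0.03 and -0.01 in the Glut1-KO group. For ether lipid genes it was at 0.13, -0.12, -0.23, 0.04 and -0.18, then at 0.15, 0.01, -0.15, 0.26 and 0.09. The groups overlapped in all 3 roles, in biogenesis only through Control 3. The beta-oxidation median was 0.27 for the female Glut1-KO libraries against all controls and -0.05 with male libraries only, the biogenesis median 0.00 and 0.14. The ether lipid median was 0.21 and 0.20. With 3 genes it was the value of Gnpat in both of these fits and in the main one. In the same 2 fits Agps stood at 0.43 and -0.04, and Far1 at -0.40 and 0.58.

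**Figure D2:**
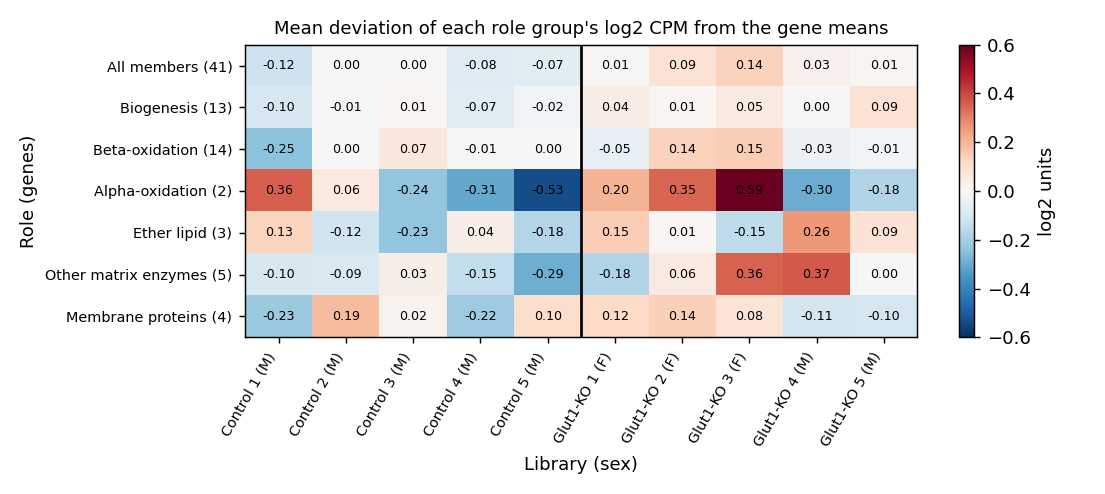
Mean deviation of log2 CPM from the gene means for all members and for each role (rows, number of tested genes in brackets) in each library (columns, sex in brackets). For all members the lowest Glut1-KO library (0.006) lies just above the highest control (0.004), while single roles overlap between the groups and alpha-oxidation, with 2 genes, spreads from -0.53 to 0.59.

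Levels between genes were compared as TPM, in which counts are also divided by exon length, over all 10 libraries. Catalase (Cat), which splits hydrogen peroxide, was the highest at 622 ± 209 TPM (SD, n = 10), followed by Gnpat at 279 ± 41.8 and Prdx5 at 208 ± 51.9. In all, 9 of the 42 members with a length had a mean of 100 or more TPM, 26 had 20 or more, and Baat, Slc27a2 and Abcd2 were under 1 TPM. These 9 were enzymes or transporters, 4 of them from beta-oxidation (Scp2, Hsd17b4, Ech1 and Abcd3), and the highest biogenesis gene was Pex2 at 74.3 ± 8.25 TPM. Neighbours in this order were not separated: the ranges over libraries overlapped for 40 of 41 neighbouring pairs, the exception being Pex7 above Hacl1. The lengths were those of all annotated exons joined, which lowers the TPM of genes with long alternative exons such as Pex7 (12092 bases). Mpv17 had no length in the annotation used.

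**Figure D3:**
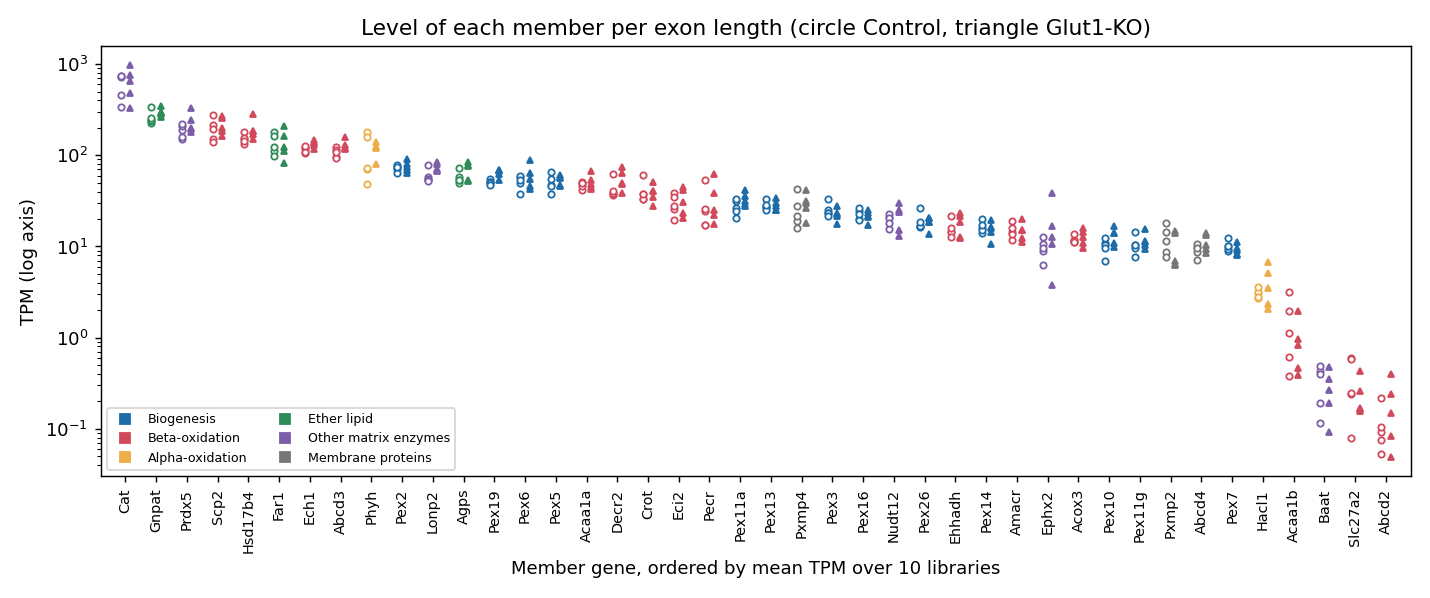
Level of 42 members in TPM (log axis) in each of the 10 libraries, circles for Control and triangles for Glut1-KO, ordered by the mean. Levels run from 622 TPM for Cat down to 0.15 TPM for Abcd2, with a drop between Pex7 and Hacl1.

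Among the import receptors, Pex5, which carries the large class of matrix proteins with a C-terminal signal, was at 50.4, 69.6, 61.4, 59.7 and 67.1 CPM in Controls 1 to 5 and at 59.1, 63.1, 68.3, 63.6 and 75.8 CPM in Glut1-KO replicates 1 to 5. The groups overlapped, with a log2 fold change of 0.10 ± 0.12 (SE; adjusted p = 0.856, limma). Pex7, which carries the few proteins with an N-terminal signal, Agps and Phyh among them, was at 36.8, 40.5, 36.9, 39.7 and 37.2 CPM in the controls and at 35.6, 37.9, 35.9, 33.7 and 31.7 CPM in the Glut1-KO group. Here 4 of 5 Glut1-KO libraries lay below every control, by a log2 fold change of -0.13 ± 0.09 (adjusted p = 0.769, limma), and the 2-sided exact permutation p was 0.0317. The smallest p that this test can give with 5 against 5 libraries is 0.00794, and its p is not adjusted for the number of genes.

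The docking proteins Pex13 and Pex14 form the site at which loaded receptors arrive. Pex14 was at 29.9, 33.6, 33.2, 31.4 and 32.8 CPM in the controls, a narrow band, and at 32.0, 28.2, 20.2, 31.0 and 39.5 CPM in the Glut1-KO group, whose replicates 2 and 3 lay below and replicate 5 above all controls (log2 fold change -0.13 ± 0.16). Pex13 had the smallest spread relative to its mean of all members in the controls, 3.42% at 40.9 ± 1.40 CPM (SD, n = 5), and was at 41.4 ± 5.58 CPM in the Glut1-KO group, a log2 fold change of 0.01 ± 0.11.

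Pex2 and Pex10 belong to the ring of ubiquitin ligases that tags the receptors. Pex10 was at 7.75, 9.65, 11.2, 10.4 and 12.5 CPM in the controls and at 14.8, 15.4, 14.2, 11.2 and 11.5 CPM in the Glut1-KO group. The 3 female Glut1-KO libraries lay above every control and the 2 male ones within the control range. The log2 fold change was 0.39 ± 0.17, the highest of the 41 members in the limma fit (adjusted p = 0.631, limma). By DESeq2 it was 0.39, below the 0.82 of Ephx2. Pex2 was at 57.6, 47.8, 53.1, 47.5 and 52.0 CPM in the controls and at 50.5, 57.8, 56.1, 58.2 and 46.3 CPM in the Glut1-KO group, overlapping ranges with a log2 fold change of 0.06 ± 0.11.

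Pex6, an ATPase that pulls receptors out of the membrane, was at 61.2 ± 8.98 CPM (range 48.2 to 73.4) in the controls and 70.5 ± 20.8 CPM (52.1 to 103.1) in the Glut1-KO group. Its membrane anchor Pex26 was at 33.3 ± 4.26 CPM (30.5 to 40.8) and 32.5 ± 4.64 CPM (25.2 to 36.8). Both pairs of ranges overlapped, with log2 fold changes of 0.17 ± 0.19 and -0.05 ± 0.14.

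Of the 3 membrane assembly genes, 1 had a log2 fold change above 0 and 2 below, and none passed the test over all genes. Pex19, the cytosolic chaperone that delivers membrane proteins, was at 71.6, 51.9, 63.6, 62.2 and 55.2 CPM in the controls and at 66.5, 73.0, 81.0, 82.7 and 81.5 CPM in the Glut1-KO group. All Glut1-KO libraries but replicate 1 lay above every control, a log2 fold change of 0.34 ± 0.12 (adjusted p = 0.513, limma; exact permutation p = 0.0159). Pex3, the membrane anchor to which Pex19 delivers, was at 40.5, 42.1, 36.4, 36.5 and 31.3 CPM and at 35.5, 36.4, 32.8, 28.7 and 32.5 CPM, a log2 fold change of -0.17 ± 0.12 with overlapping ranges. Pex16, which recruits Pex3, was at 12.5 ± 1.68 CPM (11.2 to 15.5) and 12.1 ± 1.67 CPM (10.5 to 14.5), a log2 fold change of -0.05 ± 0.15. Exons of Pex3 and Pex16 overlap those of Adat2 and Large2 on the opposite strand, and the strand setting of the counting is not given in the sources used here.

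The division genes elongate the membrane before fission. Pex11a, inducible by the fatty acid receptor PPAR alpha in other tissues, was at 22.1, 22.5, 33.0, 25.8 and 32.4 CPM in the controls and at 32.3, 31.8, 40.7, 30.3 and 29.9 CPM in the Glut1-KO group. Only replicate 3 of the Glut1-KO group lay above all controls (log2 fold change 0.30 ± 0.15, adjusted p = 0.681, limma). Pex11g was at 11.02 ± 1.71 CPM (8.55 to 13.2) and 12.4 ± 2.84 CPM (9.70 to 17.0), a log2 fold change of 0.15 ± 0.19.

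In beta-oxidation, substrates first have to be activated and carried in. Abcd3, the transporter of branched-chain and dicarboxylic acyl-CoA (chr3:121758774-121815302, minus strand, mm10), was at 273, 202, 209, 205 and 219 CPM in the controls and at 257, 293, 245, 268 and 271 CPM in the Glut1-KO group. Every Glut1-KO library lay above 4 of the 5 controls, and Control 1 lay above all but 1 of them. The log2 fold change was 0.27 ± 0.11 (adjusted p = 0.612, limma; exact permutation p = 0.0397). Its relative Abcd2 (0.204 ± 0.127 and 0.337 ± 0.233 CPM) was too low to be tested, and the acyl-CoA synthetase Slc27a2 was at 0.413 ± 0.280 and 0.273 ± 0.113 CPM, levels at which the log2 fold change of -0.34 has an SE of 0.54. Both are abundant in other organs.

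For the hydration and dehydrogenation steps of the cycle the cell has a pair of bifunctional enzymes. Hsd17b4, which handles very-long-chain and branched substrates, was at 175, 164, 175, 149 and 148 CPM in the controls and at 201, 270, 179, 216 and 163 CPM in the Glut1-KO group. All Glut1-KO libraries but replicate 5 lay above every control, a log2 fold change of 0.32 ± 0.14 (adjusted p = 0.627, limma; exact permutation p = 0.0397). Ehhadh, the other bifunctional enzyme and a classical PPAR alpha target in liver, was at 14.6, 11.5, 20.97, 12.4 and 14.6 CPM and at 17.7, 19.1, 19.6, 12.8 and 12.2 CPM, so that every Glut1-KO value lay inside the control range (log2 fold change 0.16 ± 0.21). Acox3, an oxidase for branched substrates at the first step, was at 42.6 ± 2.41 CPM (39.2 to 45.9) and 45.2 ± 6.22 CPM (35.5 to 50.6), a log2 fold change of 0.08 ± 0.12.

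The thiolases carry out the last, cleaving step. Scp2, whose long form is a thiolase and whose short form is a sterol carrier, was the highest of the role per length (205 ± 49.2 TPM) and spread widely, with 253, 143, 318, 220 and 148 CPM in the controls and 302, 250, 213, 222 and 180 CPM in the Glut1-KO group. All Glut1-KO values lay inside the control range (log2 fold change 0.15 ± 0.23). Acaa1a was at 61.7, 58.7, 67.1, 73.8 and 66.5 CPM and at 68.3, 52.3, 60.5, 81.1 and 94.2 CPM, where the 2 male Glut1-KO libraries lay above all controls and the female ones did not (log2 fold change 0.09 ± 0.16). Its near-copy Acaa1b was at 0.253, 1.67, 0.395, 1.25 and 0.675 CPM and at 0.292, 0.214, 0.584, 0.552 and 1.22 CPM, overlapping ranges at a low level. The log2 fold change of -0.52 had an SE of 0.61, so no firm value can be given. Reads of the near-copies may be split between them, and both overlap a gene on the opposite strand (Myd88 and Dlec1), so their counts are uncertain.

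Auxiliary enzymes act on double bonds and side chains. Decr2, a dienoyl-CoA reductase (chr17:26081208-26090337, minus strand), was at 33.0, 44.2, 32.7, 33.6 and 32.7 CPM in the controls and at 41.3, 47.2, 60.7, 35.3 and 42.4 CPM in the Glut1-KO group. Each Glut1-KO library lay above the 4 controls other than Control 2, and 2 lay above Control 2 as well (log2 fold change 0.35 ± 0.16, adjusted p = 0.644, limma; exact permutation p = 0.0476). Ech1, a dienoyl-CoA isomerase, was at 83.4 ± 5.45 CPM (75.5 to 89.2) and 96.1 ± 11.3 CPM (82.5 to 107.2), with 3 Glut1-KO libraries above all controls (log2 fold change 0.20 ± 0.11).

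The remaining enzymes of the role overlapped between groups. The isomerase Eci2 was at 51.3 ± 14.9 and 55.2 ± 15.2 CPM (log2 fold change 0.13 ± 0.26) and the reductase Pecr at 12.7 ± 5.41 and 15.4 ± 7.89 CPM (0.23 ± 0.35). The racemase Amacr was at 12.1 ± 1.18 and 12.0 ± 2.18 CPM (-0.05 ± 0.16) and Crot, which moves shortened acyl chains onto carnitine for export, at 68.5 ± 12.6 and 65.6 ± 9.71 CPM (-0.06 ± 0.15). Eci2 has a near-copy, Eci3, with which it may share reads.

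Alpha-oxidation removes a single carbon from phytanic acid and other methyl-branched acids. Phyh, its first enzyme, was at 115, 82.0, 44.2, 45.4 and 28.0 CPM in the controls and at 75.1, 73.2, 70.3, 51.8 and 75.3 CPM in the Glut1-KO group. The controls spread most widely of all members above 1 CPM, and the Glut1-KO values all lay inside their range (log2 fold change 0.30 ± 0.33). Hacl1, the lyase that follows, was at 4.74 ± 0.504 CPM (4.16 to 5.40) in the controls, at 5.55 to 10.1 CPM in the 3 female and at 3.26 and 4.02 CPM in the 2 male Glut1-KO libraries, above and below all controls (log2 fold change over all libraries 0.25 ± 0.30). That fold change was 0.02 without Glut1-KO replicate 3 and 0.46 without replicate 5. Exons of Hacl1 overlap those of Gm49387 on the same strand and of Btd on the opposite strand.

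Ether lipid synthesis begins with Gnpat, which puts an acyl chain on dihydroxyacetone phosphate, and Agps, which exchanges it for a fatty alcohol. Gnpat (chr8:124863033-124890057, plus strand) was at 273, 327, 284, 286 and 281 CPM in the controls and at 338, 352, 311, 324 and 342 CPM in the Glut1-KO group. Every Glut1-KO library lay above the 4 controls other than Control 2, and 3 lay above that one too. The log2 fold change was 0.20 ± 0.09, with an adjusted p of 0.644 (limma) and an exact permutation p of 0.0238. Exons of Gnpat overlap those of 2810004N23Rik on the opposite strand and of Gm16163 on the same strand.

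Agps (chr2:75832177-75931350, plus strand) was at 187, 185, 155, 165 and 153 CPM in the controls and at 237, 220, 219, 172 and 156 CPM in the Glut1-KO group. The 3 female Glut1-KO libraries lay above every control and the 2 male ones among them, a log2 fold change of 0.24 ± 0.14 (adjusted p = 0.722, limma). Far1, the acyl-CoA reductase that supplies the fatty alcohol and is held to limit plasmalogen synthesis, was at 486, 244, 263, 436 and 304 CPM and at 320, 250, 202, 583 and 423 CPM. The male Glut1-KO libraries lay above the female ones, both groups spread widely, and the log2 fold change was -0.01 ± 0.30. None of the 3 genes passed the test over all genes.

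Lonp2 was the only member whose groups did not overlap, 1 of 41 higher against 0.798% of all genes tested, and 0 lower against 1.06%. This peroxisomal Lon protease (chr8:86624043-86723873, plus strand), which degrades damaged or unneeded matrix proteins, was at 104.5, 112.8, 96.5, 94.2 and 85.7 CPM in the controls and at 117.8, 125.0, 131.7, 125.0 and 119.6 CPM in the Glut1-KO group. The gap between the highest control and the lowest Glut1-KO library was smaller than the spread within either group. The log2 fold change was 0.33 ± 0.10, a fold of 1.26 (adjusted p = 0.443, limma), and the exact permutation p of 0.00794 is the smallest possible. It was 0.31 with male libraries only and 0.35 for the female Glut1-KO libraries against all controls, which share those controls. With library totals in place of TMM scaling the groups overlapped.

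**Figure D4:**
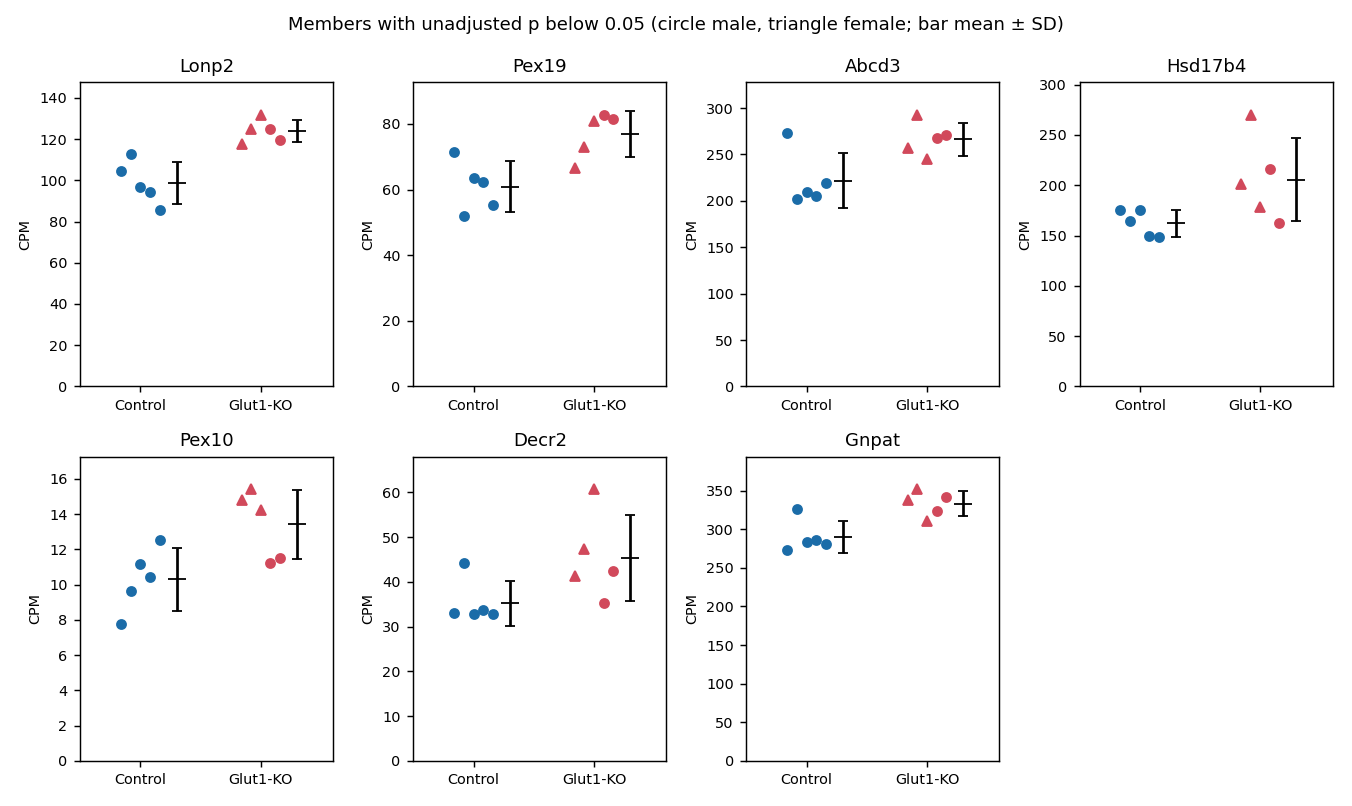
Level in CPM of the 7 members with an unadjusted p under 0.05 in each library, circles for male and triangles for female mice, with mean ± SD (n = 5) beside each group. Lonp2 separates the groups, with controls up to 112.8 CPM and Glut1-KO libraries from 117.8 CPM, and in each of the other 6 at least 1 Glut1-KO library lies below the highest control.

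The other matrix enzymes spread more widely. Cat was at 301, 529, 620, 394 and 595 CPM in the controls and at 549, 560, 772, 299 and 405 CPM in the Glut1-KO group, a log2 fold change of 0.06 ± 0.27. The antioxidant Prdx5, which is also found in mitochondria, was at 125 ± 28.5 CPM (87.4 to 153) in the controls, at 109 to 136 CPM in the female and at 246 and 166 CPM in the male Glut1-KO libraries (log2 fold change 0.30 ± 0.23). Ephx2, the soluble epoxide hydrolase, was at 7.49 ± 1.69 CPM (4.70 to 9.04) in the controls and at 13.2 ± 11.5 CPM (3.02 to 32.7) in the Glut1-KO group, the widest relative spread of any member tested. That spread rested on the 32.7 CPM of replicate 4, and the log2 fold change of 0.38 had an SE of 0.51. The Ephx2 fold change was 0.01 without Glut1-KO replicate 4, 0.80 without replicate 1 and 0.82 by DESeq2.

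Nudt12, which hydrolyses NADH and related nucleotides, was at 26.9 ± 3.54 CPM (22.5 to 31.2) in the controls, at 33.7 to 36.3 CPM in the female Glut1-KO libraries and at 19.8 and 21.1 CPM in the male ones, above and below all controls (log2 fold change over all libraries 0.08 ± 0.19). Baat, which conjugates bile acids in liver, was at 0.193 ± 0.0901 and 0.166 ± 0.0918 CPM and was not tested.

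The membrane proteins overlapped between groups. Pxmp4, a membrane protein of unclear role, was at 17.0, 35.5, 19.6, 21.9 and 26.8 CPM in the controls and at 26.3, 26.0, 39.4, 19.2 and 31.0 CPM in the Glut1-KO group (log2 fold change 0.24 ± 0.23). Pxmp2, a pore for small metabolites, was at 4.42 ± 1.15 and 3.62 ± 1.51 CPM (-0.36 ± 0.31), with 3 Glut1-KO libraries below all controls. Abcd4, which despite its family sits mainly in lysosomes, was at 23.1 ± 3.49 and 27.8 ± 4.90 CPM (0.27 ± 0.16), and Mpv17, mainly a mitochondrial protein, at 40.7 ± 2.48 and 42.2 ± 5.70 CPM (0.04 ± 0.11).

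Male and female Glut1-KO libraries were separated in members about as often as in all genes. Among the 41 tested, 11 were higher in all 3 female than in both male Glut1-KO libraries (26.8%), against 20.6% of all genes, and 8 were higher in both male ones (19.5%), against 20.3%. Among the 41, 7 had all female Glut1-KO libraries above all controls (Hsd17b4, Lonp2, Agps, Nudt12, Acox3, Pex10 and Hacl1), against 4.16% of all genes, and 0 had all of them below, against 5.41%. With the 2 male Glut1-KO libraries, 6 members lay above all controls (Prdx5, Ech1, Lonp2, Pex19, Acaa1a and Ephx2), against 8.54% of all genes, and 4 below (Nudt12, Pxmp2, Pex7 and Hacl1), against 8.57%. Lonp2 is the only gene on both lists of higher members.

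Fitted separately against the same controls, the log2 fold changes of male and of female Glut1-KO libraries stood at -0.44 and 0.40 for Cat, at 0.58 and -0.40 for Far1, and at -0.39 and 0.65 for Hacl1. They stood at 0.20 and 0.21 for Gnpat, 0.29 and 0.27 for Abcd3 and 0.44 and 0.29 for Pex19. The first 3 genes thus had opposite signs and the last 3 the same sign in both. The difference between the sexes was not tested, and no control was female. Sex also goes with the level of Slc2a1 in the Glut1-KO group and with a shared name number, so these 3 cannot be told apart.

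**Figure D5:**
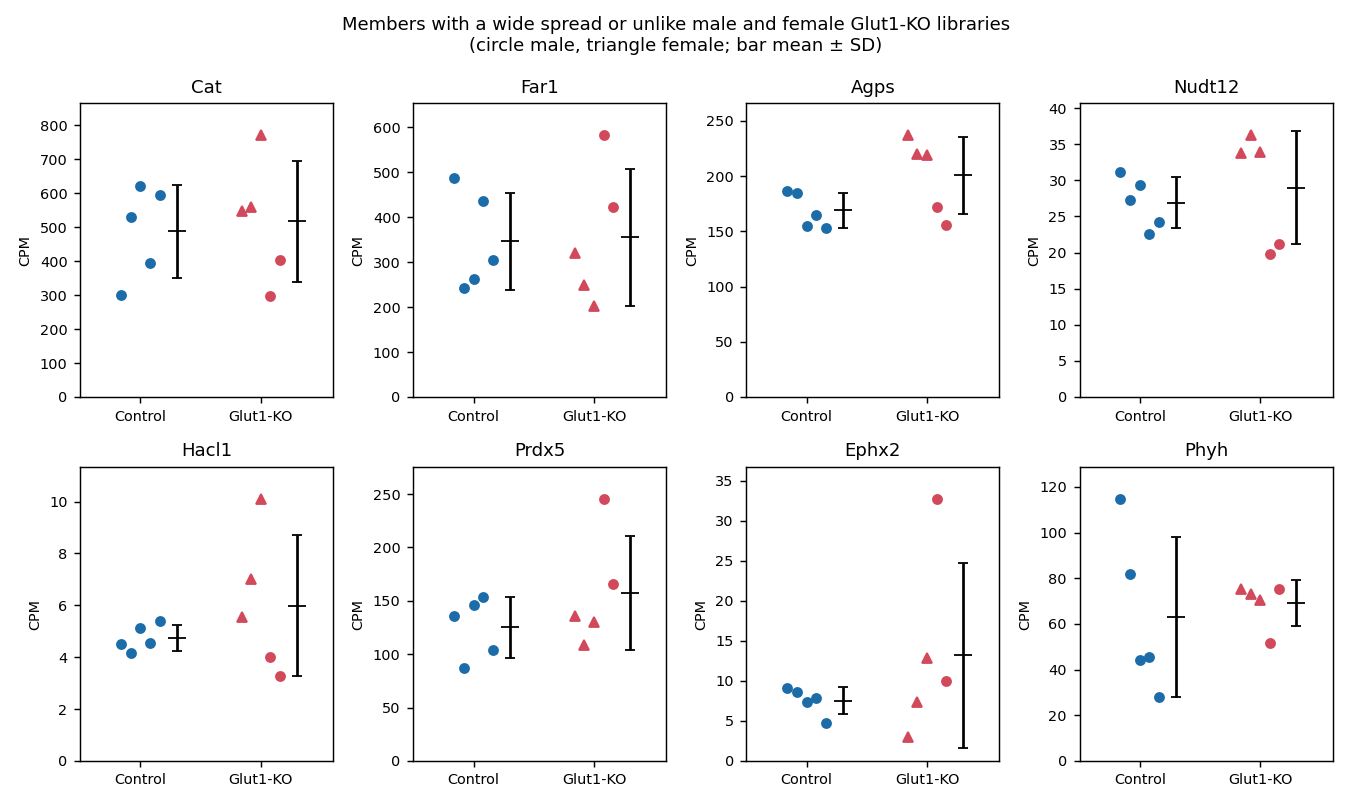
Level in CPM of 8 members, chosen after their values were seen for a wide spread or for unlike male and female Glut1-KO libraries, in each library (circles male, triangles female) with mean ± SD (n = 5). Agps, Nudt12 and Hacl1 show the 3 female Glut1-KO libraries above all controls, and the single Ephx2 point at 32.7 CPM is Glut1-KO replicate 4.

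The spread within a group is given as the coefficient of variation (SD over mean CPM). Over the tested members its median was 13.4% in the controls and 18.2% in the Glut1-KO group. In the controls 12 of 41 members were under 10%, from Pex13 at 3.42% upwards, and 7 were over 30%, namely Pxmp4, Far1, Scp2, Pecr, Phyh, Slc27a2 and Acaa1b, none of them a biogenesis gene. By role the control values ran from 3.42% to 19.4% in biogenesis (median 12.6%), from 5.65% to 70.4% in beta-oxidation (16.3%) and from 7.23% to 31.3% in ether lipid genes (9.48%). The coefficient was larger in the Glut1-KO group for 25 of 41 members, a share that was not computed over all genes. Lonp2 (10.5% and 4.40%), Gnpat (7.23% and 4.82%) and Phyh (55.8% and 14.3%) were among those for which it was smaller. The Glut1-KO group holds both sexes, unlike Slc2a1 levels and 4 name numbers, while the controls are all male with 2 name numbers. The part of this in the spread was not tested.

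Promoter windows, from 250 bases before to 50 after a start site, were found in RefSeq (GRCm38.p6, the same assembly as mm10) for 33 of the 43 members. They were searched on both strands for the sites that nuclear receptors and other lipid and stress factors are known to use. The direct repeat bound by PPAR with RXR, 2 copies of AGGTCA with any 1 base between them and up to 2 mismatches, was in the window of 1 member (3.03%), Cat, against 4.40% of all genes with a window. TCAAGGTCA, a half-site of oestrogen-related receptors, was in 0 members against 0.466%. TGACNNNGC, the core of the antioxidant response element, was in 4 members (12.1%; Ehhadh, Pex11g, Pex7 and Scp2) against 14.0%, and CACGTG, an E-box, in 3 (9.09%; Gnpat, Lonp2 and Mpv17) against 8.09%. The shares of members thus lay near those of all genes. Below are the match in Cat, the most abundant member, and those in Lonp2 and Gnpat, 2 of the 7 members above, with the matched letters in capitals. Each is shown with 15 bases on either side, and the coordinates are those of the whole piece shown. The Cat match is at positions -204 to -192 from its start (piece chr2:103485330-103485372, minus strand), the Gnpat match at -224 to -219 (piece chr8:124862794-124862829, plus strand), and the Lonp2 match at -80 to -75 from the later of its annotated starts (piece chr8:86651474-86651509, plus strand).
Cat: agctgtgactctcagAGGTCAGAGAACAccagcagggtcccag
Gnpat: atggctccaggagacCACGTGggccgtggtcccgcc
Lonp2: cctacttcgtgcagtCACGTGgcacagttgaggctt
The E-box reads the same on both strands, and a match is a description of these letters, not of binding.

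Beyond the members, 46 other peroxisome genes were listed, of which 37 could be tested. Of these 0 passed the adjusted p (limma), and 21 had log2 fold changes above 0 and 16 below, with a median of 0.05. At an unadjusted p under 0.05, 3 were higher (8.11%, against 3.66% of all genes) and 2 lower (5.41%, against 4.02%) in the Glut1-KO group. By role, the 10 tested biogenesis genes had a median of 0.00 (5 above 0 and 5 below). The 13 tested beta-oxidation genes had -0.06 (6 above and 7 below). In each of these roles 0 were higher and 1 lower at that p. The 12 tested other matrix enzymes had 0.20 (8 above and 4 below), with 3 higher and 0 lower. The matrix glutathione transferase Gstk1 was at 57.1 ± 9.49 CPM in the controls and 93.3 ± 22.9 CPM in the Glut1-KO group without overlap (log2 fold change 0.69 ± 0.18, adjusted p = 0.395, limma). Idh1, which makes NADPH, was at 247 ± 43.6 and 322 ± 33.0 CPM (0.40 ± 0.14). DESeq2 called 2 of the 37 higher (5.41%, against 0.682% of all genes), Gstk1 among them.

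Among the lower genes was Tysnd1, the protease that trims imported beta-oxidation enzymes, at 12.7 ± 0.862 CPM in the controls and 9.47 ± 1.51 CPM in the Glut1-KO group without overlap (log2 fold change -0.44 ± 0.15, adjusted p = 0.531, limma). The 6 PPAR genes and their partners (Ppara, Ppard, Pparg, Rxra, Ppargc1a and Ppargc1b), which drive peroxisome genes in liver and fat, had 0 at an unadjusted p under 0.05 (against 3.66% of all genes higher and 4.02% lower) and 0 after adjustment (limma). Their log2 fold changes were above 0 for 5 of 6, from -0.20 ± 0.16 for Ppard to 0.66 ± 0.36 for Ppara, which was at 3.63 ± 1.05 CPM in the controls and 6.13 ± 3.33 CPM in the Glut1-KO group (adjusted p = 0.715, limma). The Ppara log2 fold change was 0.11 with male libraries only and 1.00 for the female Glut1-KO libraries against all controls.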

How the data were processed

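RNA was sequenced from the CD45-negative fraction of lung tumours (stranded polyA libraries). The deposited values are raw read counts per Ensembl gene. Per the labels, the authors used bcl2fastq 2.17, cutadapt 1.4.2, HISAT2, featureCounts 1.4.4 and edgeR with mm10; strand setting and annotation release are not given in the sources used here. The deposited log2 table of the same libraries was not used. Groups came from the sample titles. The members and gene lists were chosen with earlier results of these data known.

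Counts were filtered with filterByExpr (minimum count 10, total 15), scaled by TMM, and tested with voom and limma 3.58.1 (edgeR 4.0.16, R 4.3.3), with group as the only term and Benjamini-Hochberg adjustment over 15922 genes, threshold 0.05. CPM values are TMM-scaled, and TPM values use GENCODE M21 exon lengths. Fold changes come from log2 CPM with a prior count of 0.5. Single genes also had a 2-sided exact permutation test over 252 assignments. Its p is unadjusted and treats the libraries as exchangeable, although several share a name number. In the text above it is printed only for members in which it was under 0.05. Among the others the exact permutation p was 0.357 for Pex5, 0.119 for Pex11a and 0.119 for Agps. Values in every library are given for members with an unadjusted p under 0.05, without overlap, highest per length in their role, or listed for their function; other members are given by mean and SD, with the range for some. Alternatives were DESeq2 1.42.0, edgeR's quasi-likelihood test, other scalings and filters, sex, replicate and name-number terms, and leaving out each library. The fit was tested on simulated data. Some items are not reported here.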

Additional observations from a re-analysis of the deposited data

Results flagged for a closer look

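Within groups of 5 libraries, the highest or lowest value of a member lay far from the rest, by a gap of more than 0.71 of the group's range, in 9 of 82 groups examined, where chance alone flags about 1 in 20 groups (4.1 of 82). Control 2 stood out high in Pex26 (40.8 CPM, the other controls 30.5 to 32.4), Decr2 (44.2 CPM, others 32.7 to 33.6), Pecr (21.9 CPM, others 8.47 to 12.1) and Gnpat (327 CPM, others 273 to 286). Control 1 stood out in Abcd3 (273 CPM, others 202 to 219) and Control 3 in Pex16 (15.5 CPM, others 11.2 to 12.2). In the Glut1-KO group, replicate 3 stood out in Pex11a (40.7 CPM, others 29.9 to 32.3), and replicate 4 in Mpv17 (52.2 CPM, others 38.3 to 41.6) and, low, in Phyh (51.8 CPM, others 70.3 to 75.3). In Decr2, Gnpat and Abcd3 the far control is the one that overlaps with the Glut1-KO libraries. Control 2 also had the lowest alveolar type 2 and club marker sums of the controls (28200 and 2103 CPM) and the highest proliferation sum (715 CPM), and the part of this in these values was not tested.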

How the results depend on the processing

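Calls among all genes depended on the tool and libraries: limma called 0 genes and DESeq2 210, limma 2 with counts summed over libraries that share a name number, 9 for female Glut1-KO libraries against all controls, 1 with male libraries only, 3 with sex as a covariate, and 0 to 1 when leaving out single libraries. No member was called under any alternative run. The 7 members higher at an unadjusted p under 0.05 became 2 with summed counts, 3 with library totals, 3 with a mean TPM of 20 or more, and 2 to 8 without single libraries, and the 0 lower became 1 with sex as a covariate. The 1 member without overlap on the higher side became 9 with summed counts scaled to totals (20.9% of 43 members, against 5.36% of all genes). There only 2 control units stand against 4 Glut1-KO units. It became 7 with female Glut1-KO libraries (against 4.16% of all genes), 6 with male libraries only (against 8.54%) and 0 with library totals. The 0 on the lower side became 4 with male libraries only (against 8.57%). With fewer libraries more of all genes lie without overlap, where all 10 libraries gave 0.798% higher and 1.06% lower. Leaving out single libraries gave 1 to 3 members higher and 0 to 1 lower, for which no share over all genes was computed.

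The beta-oxidation median of 0.14 was 0.27 with female Glut1-KO libraries and reversed to -0.05 (-0.0473) with male libraries only. The biogenesis median of 0.06 was 0.11 with summed counts, 0.0029 with female Glut1-KO libraries and 0.14 (0.135) with male libraries only. With sex as a covariate these 2 medians were -0.0468 and 0.1366. No control was female, so that fit sets the 2 male Glut1-KO libraries against the controls. It is the same contrast as with male libraries only and not a separate check. The median of all members (0.15) was 0.21 with female Glut1-KO libraries and 0.086 to 0.20 without single libraries. The cause was not tested. Leaving out single libraries gave 0.07 to 0.25 for beta-oxidation, 0.03 to 0.08 for biogenesis and 0.17 to 0.25 for ether lipid genes.

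Of 969 member fold changes under 24 alternatives, 28 moved by 1 SD or more. The sign held in every alternative for 19 members, the 7 with an unadjusted p under 0.05 among them, and changed in some alternative for 22. With the replicate block, 3 members were higher at an unadjusted p under 0.05, but same-numbered libraries shared only a number: the correlations of their deviations were 0.04, -0.09, 0.03, 0.20 and -0.13. Acaa1b and Slc27a2 had low counts and the wide SEs given above, whose cause was not tested. Abcd2 and Baat did not pass the filter on low counts, so the main fit gave no fold change for them.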
